A study of Capra hircus with 10 samples.

Results

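miR-199 and miR-214 are 2 small groups of microRNA (miRNA), short regulatory RNA that pair with messenger RNA through their bases 2 to 8, the seed, and lower its output. The miRNA described here were taken by a rule that uses names alone, though it was chosen with earlier results of these data known. The rule takes all those listed as miR-199a, miR-199b, miR-199c or miR-214 of either arm. These were 5 of the 1804 miRNA counted in the goat mammary gland: miR-199a-5p, miR-199b-5p, miR-199c-3p, miR-214-5p and miR-214-3p. The suffix 5p or 3p tells which arm of the hairpin precursor the mature miRNA comes from. In mammals a precursor of miR-199a and that of miR-214 are known to be cut from the same long RNA, transcribed on the strand opposite to the dynamin gene DNM3. A further precursor of miR-199a lies opposite to DNM2, and that of miR-199b opposite to DNM1. These miRNA are known from mesenchymal cells such as fibroblasts. In the mammary gland such cells form the stroma around the milk-secreting epithelium.

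The gland was taken at slaughter from 10 goats of the Alpine breed, all at peak lactation (48 ± 2 days after kidding). They had been given a hay-based diet with a forage to concentrate ratio of 35:65 over a 2-week pre-experimental period, and for the last 48 h 4 goats kept free access to it (Control, libraries L01, L04, L06 and L10) while the other 6 were deprived of food but not of water (FD, libraries L02, L03, L05 and L07 to L09). Each goat gave 1 small RNA library from about 150 mg of tissue, so the libraries of a diet are biological replicates. The deposited read counts summed to between 4495512 and 7506955 in Control libraries (median 5585277.5) and to between 5674119 and 9842009 in FD libraries (median 7203585). In all 21 pairs of libraries of 1 diet the counts differed by more than sampling noise (chi-square over its degrees of freedom, 50.4 to 411.7). The samples are pieces of whole gland, in which fewer cells of a type and less RNA per cell cannot be told apart, and the word stromal was therefore checked only by setting these miRNA beside miRNA named for other cell types.

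The mature sequences are shown because they set which of the 5 miRNA share a target seed and how far their reads can be told apart. They were read from the deposited count tables, 5′ to 3′, with T for U and with the seed in capitals:
miR-199a-5p: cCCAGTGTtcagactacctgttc
miR-199b-5p: cCCAGTGTttagactatctgttc
miR-199c-3p: aCAGTAGTctgcacattggtt
miR-214-5p: tGCCTGTCtacacttgctgtgc
miR-214-3p: tACAGCAGgcacagacaggc
The 2 miR-199 miRNA of the 5p arm had the same seed, CCAGTGT. The other 3 had each a seed of its own, and none of the miRNA outside these 5 had any of the 4 seeds.

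miR-199a-5p and miR-199b-5p had the same 23-base length and 21 bases in common. From the first base at the 5′ end, the substitutions that turn miR-199a-5p into miR-199b-5p were C10T and C17T, which stand in capitals here:
miR-199a-5p: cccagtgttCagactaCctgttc
miR-199b-5p: cccagtgttTagactaTctgttc
Reads of one could be counted on the other if mismatches were allowed in counting. That setting is not given in the sources used here, so the split between the 2 is less certain than their sum. Against all miRNA outside the 5, aligned at the first base, the closest sequence differed at 6 positions or more, and was a predicted miRNA for miR-199a-5p, miR-199b-5p and miR-214-3p, miR-1839 for miR-199c-3p and miR-378-5p for miR-214-5p.

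The arms were also searched for complementary stretches, which can pair in a hairpin. An 8-base stretch of miR-214-5p (bases 2 to 9) is the reverse complement of bases 13 to 20 of miR-214-3p, in capitals here:
miR-214-5p: tGCCTGTCTacacttgctgtgc
miR-214-3p: tacagcaggcacAGACAGGC
The same search found 8 bases between miR-199a-5p (10 to 17) and miR-199c-3p (4 to 11), and 6 bases between miR-199b-5p (11 to 16) and miR-199c-3p (5 to 10). It counted exact complements alone and left out G:U pairs, so the shorter stretch does not show that miR-199b-5p pairs over fewer bases. The only miR-199 miRNA of the 3p arm in the count tables carried the name miR-199c-3p. In mammals the 3p arms of the miR-199 precursors are known to be the same or nearly so, and its reads were therefore not assigned to 1 precursor here.

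The goat gene table of RefSeq (ARS1.2), used for names and neighbours, placed MIR199A and MIR214 within DNM3 on chromosome 16 with 0 genes between them, and MIR199B within DNM1 on chromosome 11. It matched 3 of the 4 precursors named for these miRNA (mir-199a, mir-199b and mir-214, not mir-199c). Of the 1070 hairpins predicted in these libraries, 0 held one of the 4 seeds in its mature sequence or contained one of the 5 miRNA. A single predicted hairpin, on the minus strand of chr15:76578883-76578951 (CHIR_1.0, the build of the files), was tagged with a snake miR-199b-5p as a miRNA of like seed. Its seed, CCAGCGT, differed from that of goat miR-199b-5p by T6C, and it had a score of 2.6, with 5 counts over the Control libraries and 0 over the FD libraries, too few to compare.

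All 5 miRNA were above the count threshold for testing, a highest normalized count above 28, which left 490 miRNA. Normalized counts are read counts divided by a size factor per library. A read spans a whole mature miRNA, so counts were compared between miRNA without division by length. How well each miRNA took up the adapters and was amplified was not measured. Ranks, shares and fold differences between miRNA are therefore those of reads, not of molecules in the tissue. miR-199c-3p, whose sequence is that of the arm known to act on MET and MTOR, was the most abundant of the 5, with a mean of 8261 normalized counts and rank 53 of 1804. It held 64.7% of their sum. miR-199b-5p (rank 94) and miR-199a-5p (rank 95) held 16.5% and 16.0%. miR-214-3p was at rank 193 with 2.32%, and miR-214-5p at rank 334 with 0.471%.

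The order of the read counts was clear except in the middle. miR-199c-3p was higher than miR-199b-5p in 10 of 10 libraries, 3.92-fold by the means, miR-199a-5p was higher than miR-214-3p in 10 of 10, 6.93-fold, and miR-214-3p was higher than miR-214-5p in 10 of 10, 4.92-fold, with no overlap of their ranges. miR-199b-5p and miR-199a-5p could not be ordered: the ratio of their means was 1.03, and miR-199b-5p was the higher in 6 of 10 libraries. Together the 5 miRNA took from 0.118% of the counts in L10 (95% Wilson interval 0.115% to 0.120%) to 0.292% in L08 (0.288% to 0.295%). These intervals cover counting error only.

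The level of each miRNA varied between goats by 2.14-fold to 2.60-fold from the lowest to the highest library. The coefficient of variation over the 10 libraries was 35.0% for miR-199a-5p, 30.0% for miR-199b-5p, 25.3% for miR-199c-3p, 25.7% for miR-214-5p and 35.1% for miR-214-3p, beside a median of 24.7% over the 490 miRNA tested. Counting error was a minor part of this variance, at most 2.79%, except for miR-214-5p. That miRNA was counted only 36 to 133 times per library, and counting error amounted to 25.5% of its variance.

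The question of the design was whether 48 h without food changed the miRNA of the lactating gland. For miR-199a-5p, which is known to act on CAV1 in fibroblasts, the Control libraries had 2020 (L01), 1553 (L04), 1474 (L06) and 1570 (L10) normalized counts. The FD libraries ran from 1375 in L02 over a median of 2234 to 3418 in L05. The diets overlapped: L03, L05, L07 and L08 were above every Control library, L07 by less than 5 counts, L09 was among them and L02 was below them all. The means were 1654 ± 247 (SD, n = 4) and 2313 ± 826 (SD, n = 6), a log2 fold change of 0.47 (SE 0.25, 95% confidence interval -0.07 to 1.01, edgeR adjusted p = 0.397). Without L08 the log2 fold change was 0.30.

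miR-199b-5p, which has the same seed, had 1894 (L01), 1616 (L04), 1637 (L06) and 1698 (L10) normalized counts in Control libraries. In FD libraries it ran from 1502 in L02 over a median of 2358 to 3218 in L05. The Control libraries lay close together, 4 FD libraries (L03, L05, L08 and L09) were above them, L07 was within their range and L02 below it. The means were 1711 ± 127 and 2373 ± 706, a log2 fold change of 0.46 (SE 0.212, interval -0.0026 to 0.92, edgeR adjusted p = 0.313). This was the smallest adjusted p of the 5, with an interval that only just included 0.

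miR-199c-3p had 8577 (L01), 8162 (L04), 7027 (L06) and 4984 (L10) normalized counts in Control libraries. In FD libraries it ran from 5434 in L02 over a median of 9131 to 11651 in L05. Here L10 was low among the Control libraries, 4 FD libraries (L03, L05, L07 and L08) were above them all, and L02 was above L10 alone. The means were 7188 ± 1608 and 8976 ± 2185, a log2 fold change of 0.31 (SE 0.208, interval -0.15 to 0.76, edgeR adjusted p = 0.457). Without L10 the log2 fold change was 0.11.

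For miR-214-3p the Control libraries had 299 (L01), 249 (L04), 235 (L06) and 205 (L10) normalized counts. The FD libraries ran from 205 in L09 over a median of 324 to 533 in L05. L05, L08 and L03 were above every Control library, while L02 and L09 were at the level of L10. The means were 247 ± 38.8 and 328 ± 124, a log2 fold change of 0.39 (SE 0.262, interval -0.17 to 0.96, edgeR adjusted p = 0.457). Without L05 it was 0.23.

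Its partner arm miR-214-5p had 65.0 (L01), 55.9 (L04), 50.4 (L06) and 41.3 (L10) normalized counts in Control libraries. In FD libraries it ran from 47.0 in L02 over a median of 62.4 to 90.6 in L05. L05 and L08 alone were above every Control library. The means were 53.2 ± 9.92 and 64.9 ± 17.4, a log2 fold change of 0.28 (SE 0.229, interval -0.22 to 0.78, edgeR adjusted p = 0.525). Without L10 it was 0.12, and without L05 or L08 0.19 or less.

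**Figure D1:**
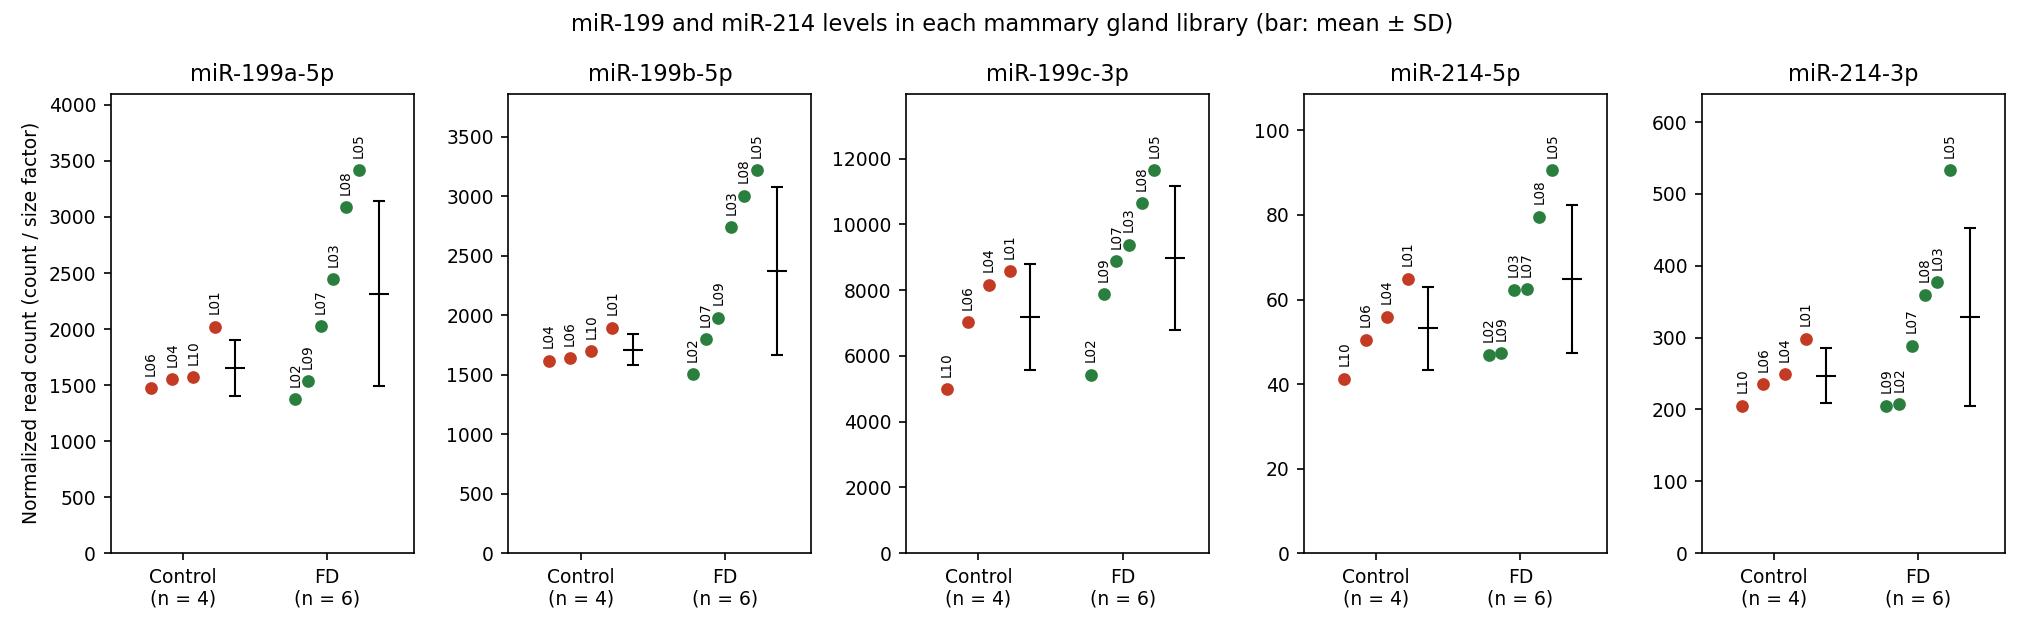
Normalized read counts of miR-199a-5p, miR-199b-5p, miR-199c-3p, miR-214-5p and miR-214-3p in each library, with the mean and SD of each diet (4 Control and 6 FD goats, axes from 0). L05 is the highest library in all 5 panels, the FD libraries spread more widely than the Control libraries, and the diets overlap in each panel.

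None of the 5 miRNA passed the threshold of 0.1 on the adjusted p in edgeR's quasi-likelihood test, nor did any of the 490 miRNA tested (0%). At an unadjusted p under 0.05 the count was 0 of 5 in edgeR, beside 77 of 490 (15.7%), 37 of them higher in FD goats (7.55%). DESeq2 also called 0 of the 5, beside 27 of 490 (5.51%), and put 1 of them, miR-199b-5p, under an unadjusted p of 0.05 (adjusted p = 0.246). In edgeR this count also moved with the setting: miR-199b-5p came under 0.05 with a robust fit and with 3 other scalings, miR-199a-5p and miR-199b-5p without a filter, and 3 of 5 (both and miR-199c-3p) without L02, and 1 of 5 without L07 or L09, at adjusted p of 0.191 or more. limma-voom called 0 of the 5 and 0 of the 490. The log2 fold change was above 0 for 5 of 5, with a median of 0.39, beside 245 of 490 (50%) and a median of -0.00041 over all miRNA tested. Since the 5 levels moved together from goat to goat, as shown further on, the 5 signs are not 5 separate observations. For 0 of 5 were all FD libraries above all Control libraries, beside 6 of 490 (1.22%).

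**Figure D2:**
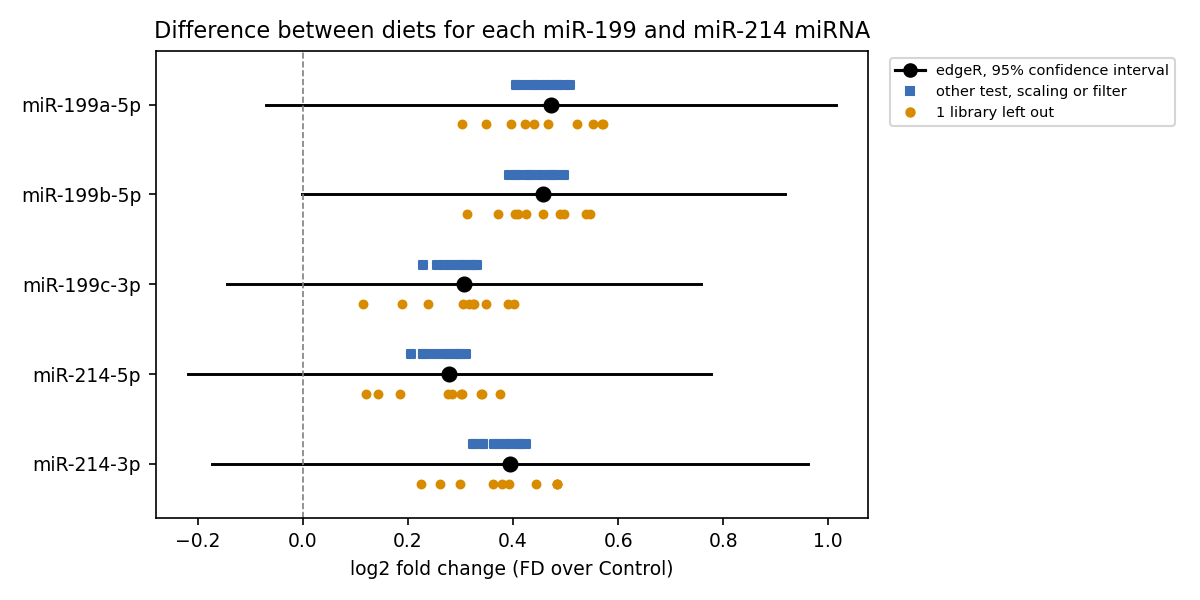
Log2 fold change (FD over Control) of the 5 miRNA with edgeR's 95% confidence interval in black, the values under another test, scaling or filter in blue and those with 1 library left out in orange. All points lie above 0 and all 5 intervals include it.

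The sum of the 5 miRNA was 10853 ± 1857 normalized counts in Control goats and 14056 ± 3774 in FD goats. It ran from 8499 to 12854 in Control libraries and from 8564 to 18911 in FD libraries. L05, L08, L03 and L07 were above all Control libraries, L09 was within their range, and L02 was near the lowest of them, L10. The log2 ratio of the means was 0.37, and 0.27 without L05.

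Ratios taken within a library do not depend on the scaling between libraries, and 4 were compared between diets. The arms of miR-214 stood at 4.59 reads of miR-214-3p per read of miR-214-5p in Control goats and at 4.86 in FD goats, with 2 libraries apart from the rest, L03 at 5.97 and L05 at 5.82, and the other 8 between 4.27 and 4.89. The log2 difference was 0.084 (95% interval -0.17 to 0.36, two-sided exact permutation test over 210 splits, p = 0.486, adjusted p = 0.971). Without L03 it was 0.025. miR-199a-5p over miR-199b-5p was 0.961 in Control goats and 0.959 in FD goats, from 0.775 in L09 to 1.13 in L07, with a log2 difference of -0.0032 (-0.25 to 0.23, exact p = 0.971).

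The 3p arm of miR-199 over the sum of the 5p arms was 2.10 in Control goats and 1.95 in FD goats. It ran from 1.53 in L10 to 2.58 in L04, both of them Control libraries, and the log2 difference was -0.11 (-0.44 to 0.29, exact permutation p = 0.510). Without L10 this difference was -0.26, and without L04 -0.010. The sum of miR-214 over the sum of miR-199 was 0.0286 in Control goats and 0.0283 in FD goats, from 0.0222 in L09 to 0.0342 in L05, with a log2 difference of -0.017 (-0.29 to 0.22, exact permutation p = 0.881). The adjusted p was 0.971 for each of the 4 ratios, and the smallest p that the 210 splits can give is 0.00476. A difference between diets in these ratios was not detectable with 4 and 6 goats, and shifts as large as the ends of the intervals could have been missed.

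**Figure D3:**
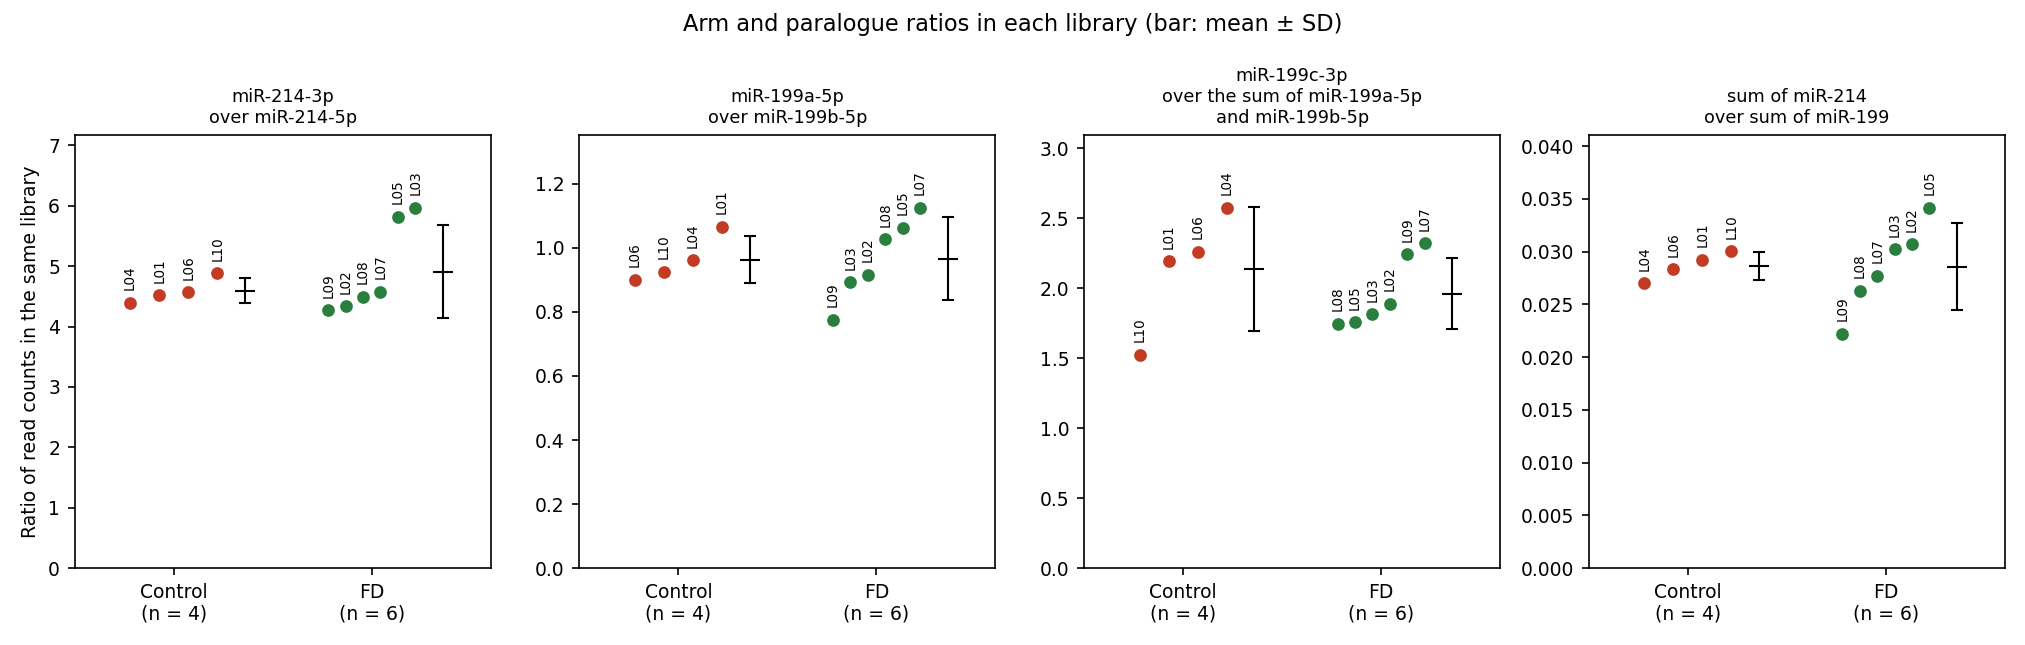
Ratio of read counts within each library for the arms of miR-214, the paralogues miR-199a-5p and miR-199b-5p, the arms of miR-199, and miR-214 against miR-199, with the mean and SD of each diet (4 Control and 6 FD goats, axes from 0). The diets overlap in all 4 panels, and L03 and L05 stand above the rest in the first.

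While the diets could not be told apart, the 5 miRNA varied together from goat to goat. Over the 10 libraries, Pearson's r of log2(normalized count + 1) ran from 0.80 (miR-199b-5p and miR-199c-3p) to 0.95 (miR-199a-5p and miR-214-3p) in the 10 pairs, with a mean of 0.89. All 10 had an adjusted p under 0.05 by permutation, the highest being 0.00659. Spearman's rho ran from 0.65 to 0.94, and 9 of 10 pairs passed, the exception being miR-199b-5p and miR-214-3p (permutation p = 0.050 after adjustment). Over all 119805 pairs of tested miRNA the median r was -0.0020 and the 90th percentile 0.55. All values of a library share its size factor, which enters each of these pairs.

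The arms of miR-214, cut from 1 hairpin, had r = 0.94 (n = 10, permutation p = 4.0e-05, adjusted p = 0.000400). miR-199a-5p and miR-214-3p, whose genes are neighbours within DNM3 in the RefSeq table, had r = 0.95 (permutation p = 0.000120, adjusted p = 0.000600). Reads of miR-199a-5p could also come from a further precursor, known opposite to DNM2 in mammals, and were not assigned to 1 locus. miR-199a-5p and miR-199b-5p, whose genes are on different chromosomes in that table, had r = 0.94 (permutation p = 0.000200, adjusted p = 0.000625), with the limit that their reads differ at only 2 bases. miR-199b-5p, which differs from the arms of miR-214 in seed and locus, had r = 0.82 with miR-214-5p and 0.88 with miR-214-3p. Pairs from 1 locus and pairs from 2 loci were not tested against each other.

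The miRNA also varied together within diets. With each value taken as the deviation from the mean of its diet, r ran from 0.75 to 0.94 with a mean of 0.87, and all 10 pairs passed (exact permutation within diets, highest adjusted p = 0.0199). The size of r depended in part on the libraries at the ends. Without the 2 libraries farthest from the median of the first miRNA of a pair, r ran from 0.48 to 0.95 over the other 8 and 7 of 10 pairs passed. The 3 that did not were miR-199b-5p with miR-214-5p (r = 0.48, exact permutation adjusted p = 0.234), miR-199b-5p with miR-199c-3p (0.62, 0.112) and miR-199a-5p with miR-199c-3p (0.71, 0.0594). These 3 did not pass once L05 and L08 were left out, with fewer libraries over a narrower range. With any single library left out, the lowest r was 0.71 and all 10 pairs passed.

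**Figure D4:**
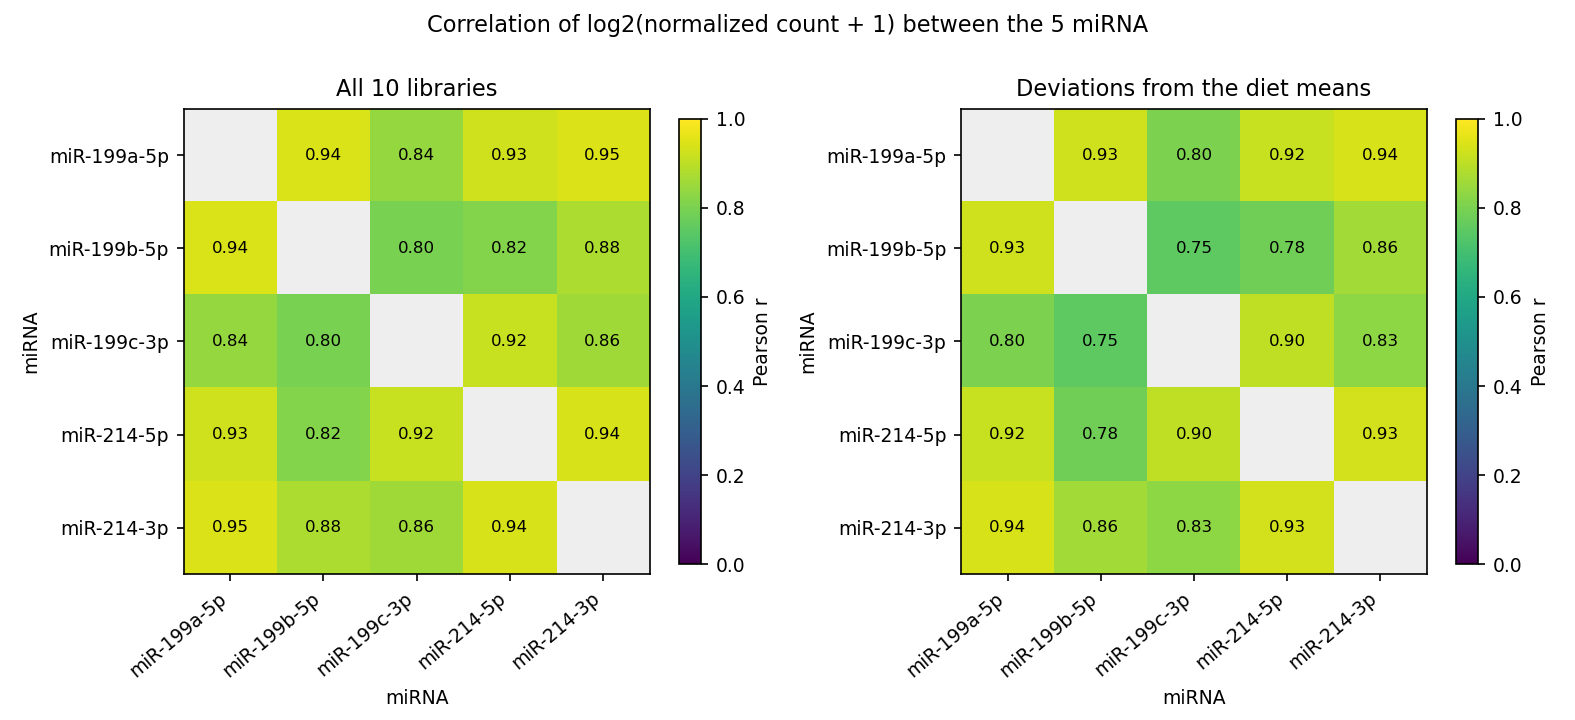
Pearson's r of log2(normalized count + 1) for each pair of the 5 miRNA over 10 libraries (left) and of deviations from the diet means (right), on a colour scale from 0 to 1. The values run from 0.80 to 0.95 on the left and from 0.75 to 0.94 on the right, lowest for miR-199b-5p with miR-199c-3p.

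For each library the 5 values, centred and scaled, were averaged into 1 profile. It was 1.72 SD in L05, 1.18 in L08 and 0.71 in L03, all FD libraries, then 0.14 in L01, 0.08 in L07, -0.41 in L04, -0.56 in L09 and -0.66 in L06, and -1.10 in both L02 and L10. The goats at the top were thus FD goats, while the lowest values came from 1 goat of each diet.

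The miRNA outside the group whose levels were most like this profile were named by r over the 10 libraries, as a description. miR-542-3p, a miRNA of the miR-424/503 cluster, had the highest r, 0.91 (0.88 within diets). It had 100.3 normalized counts in L02, next to its lowest library L06, and 268 in L08 and 380 in L05 at the high end. miR-27b-3p (r = 0.88) and miR-27a-3p (0.88), which share a seed and are known from the control of fat cell formation, came next. miR-27b-3p was the highest in L05 with 203106 normalized counts, and miR-27a-3p in L08 with 14953, followed by L05 with 14767. miR-874-5p and miR-504 (both 0.88) completed the first 5. miR-542-3p was also the miRNA most like miR-199a-5p (0.92) and miR-214-3p (0.90) taken singly, miR-504 was most like miR-214-5p (0.96) and miR-199c-3p (0.87), and miR-505-3p most like miR-199b-5p (0.91).

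At the other end stood miR-200a-5p (r = -0.92, -0.90 within diets), miR-30b-3p (-0.88) and miR-200a (-0.86). The miR-200 family is known for keeping epithelial cells epithelial through ZEB1 and ZEB2. miR-200a-5p had 498 normalized counts in L08, 525 in L03 and 530 in L05, its 3 lowest libraries, and 868 in L02 and 908 in L10, its 2 highest. Its order over the goats was thus nearly the reverse of that of miR-199 and miR-214.

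**Figure D5:**
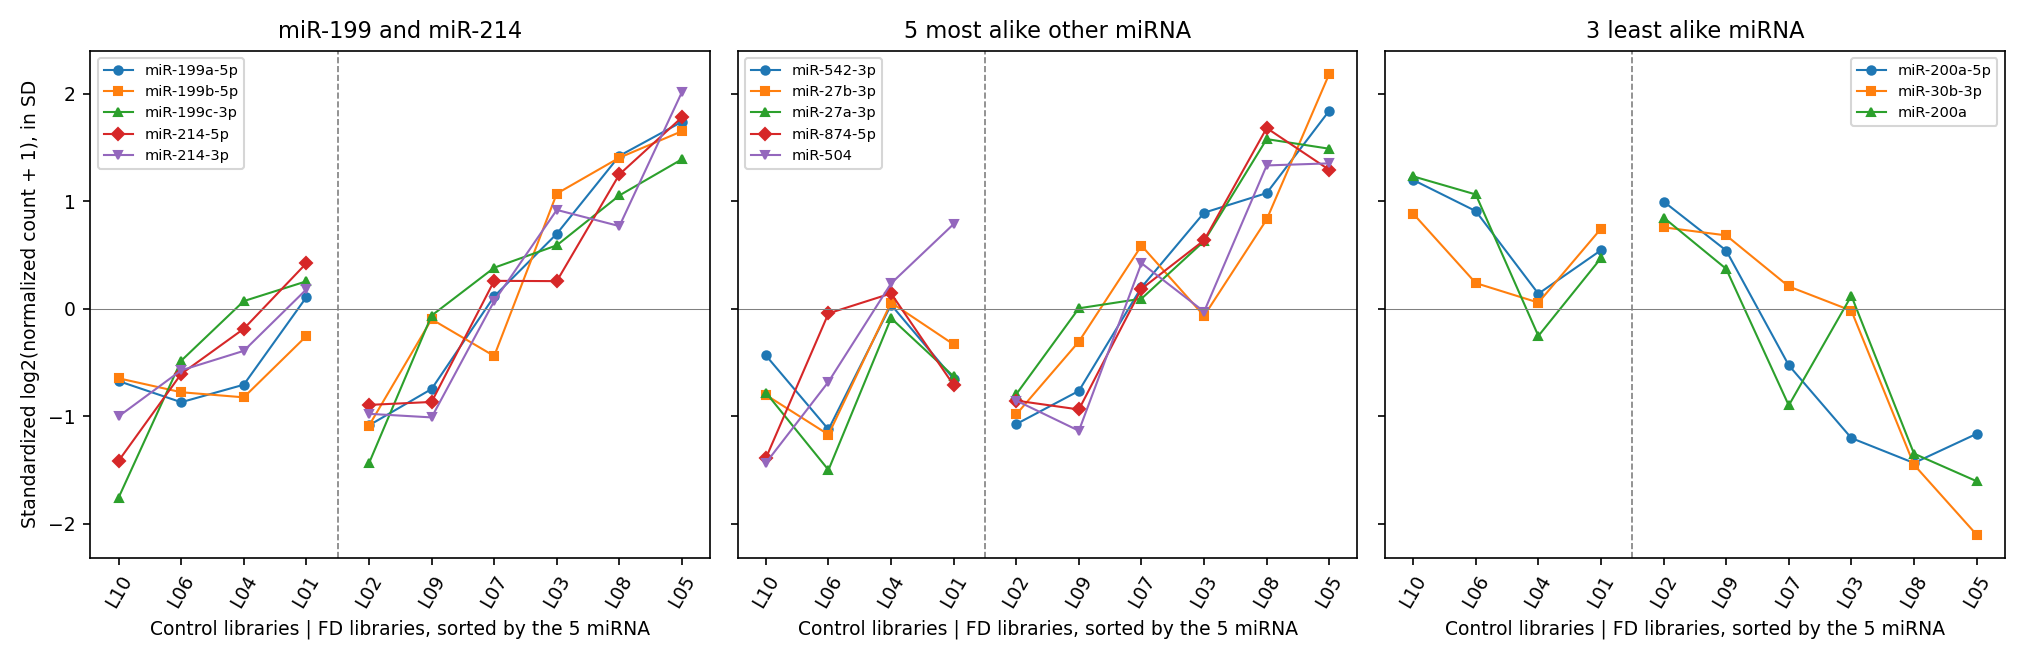
Standardized log2(normalized count + 1) in each library for the 5 miRNA (left), the 5 other miRNA most like their mean profile (centre) and the 3 least like it (right), with Control libraries left and FD libraries right of the dashed line, each sorted by the mean profile. L05 is the highest library of each line on the left, L05 and L08 are high in the centre, and both are among the lowest for the 3 miRNA on the right.

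miRNA named for cell types were set beside the group to describe the tissue. Of the other stromal list (miR-143, miR-145, miR-152, miR-100, miR-125b, miR-99a, miR-195 and miR-497), 12 of 14 listed miRNA were tested, and miR-152 was not among these 12. A positive r with the profile was found for 12 of 12, from 0.20 to 0.87 with a median of 0.63, beside 238 of 485 and a median of -0.02 over all other tested miRNA. miR-100-5p was the closest (0.87) and miR-143-3p, the most abundant of the list, had 0.79. Within diets the median r of the list was 0.56, beside -0.0081 over all other tested miRNA. The summed level of the list was 774168 ± 115591 normalized counts in Control goats and 848351 ± 195861 in FD goats. Nearly all of it was miR-143-3p, with means of 722366 and 790695, so the sum says little of the other miRNA listed. The sum was the highest in L05 (1165574) and the lowest in L02 (598741), the libraries with the highest and the next to lowest sum of miR-199 and miR-214. The log2 fold change was above 0 for 10 of 12 with a median of 0.32, beside 245 of 490 and -0.00041. An unadjusted p under 0.05 was reached by 4 of 12, all higher in FD goats, beside 37 of 490 (7.55%), the smallest by miR-99a-5p (log2 fold change 0.46, edgeR adjusted p = 0.195).

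The epithelial list (18 listed, 14 tested) had a median r of -0.59 (-0.51 within diets), with 6 of 14 above 0 over all libraries. Within it, a division made after the values were seen, the 8 miRNA of the miR-200 family (miR-200a, miR-200b, miR-200c, miR-141 and miR-429) all had a negative r, from -0.92 to -0.54, while the other 6 (arms of miR-205, miR-182, miR-183, miR-96 and miR-184) all had a positive one, from 0.21 to 0.59. The summed level was 237943 ± 12849 normalized counts in Control goats and 219817 ± 23850 in FD goats. It was the lowest in L08 (184385) and L05 (202028), and the highest in L10 (256012) and L09 (250205). miR-141 was the most abundant, with 128297 ± 1674 and 120582 ± 18736 normalized counts. The log2 fold change was above 0 for 6 of 14 with a median of -0.14. An unadjusted p under 0.05 in edgeR was reached by 1 of 14 that was higher in FD goats (beside 37 of 490, 7.55%) and by 2 of 14 that were lower (beside 40 of 490, 8.16%). The lower ones were miR-200b (52518 ± 5879 and 42001 ± 8542 normalized counts, log2 fold change -0.34, adjusted p = 0.304) and miR-429 (-0.34, adjusted p = 0.306). The higher one was miR-184, which had the smallest p, with 3.04 and 19.8 normalized counts, a log2 fold change of 2.80 and an adjusted p of 0.266 in edgeR. Its highest normalized count was 9.80 in Control libraries and 47.2 in FD libraries. It thus passed the count threshold for testing only through FD libraries, so its being tested depended on its FD level.

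The gland also held miRNA of vessels and blood. The endothelial miRNA miR-126-3p and miR-126-5p had r = 0.38 and 0.31 with the profile over all libraries, and 0.0030 and 0.014 within diets. Their sum was 133853 ± 12350 normalized counts in Control goats and 168383 ± 23642 in FD goats, and was the highest in L09 (197735). miR-126-5p was the more abundant. Both (2 of 2, beside the same 7.55%) had an unadjusted p under 0.05 in edgeR, higher in FD goats, with a log2 fold change of 0.37 (edgeR adjusted p = 0.195) for miR-126-3p. The leukocyte list (6 listed, 5 tested) had a median r of 0.26, and of 0.047 within diets. Within diets, miR-150, a lymphocyte miRNA, had 0.72 and miR-155-5p 0.11, while miR-146a had 0.047, miR-223-3p -0.12 and miR-223-5p -0.44. The most abundant of the list in Control goats was miR-155-5p (6142 normalized counts, beside 3609 for miR-150). In FD goats miR-150 was the higher of these (6645, beside 5718 for miR-155-5p). The sum of the list was 12444 ± 2469 and 16861 ± 4764 normalized counts, highest in L08 (23632) and L05 (20565). In edgeR, 4 of 5 had an unadjusted p under 0.05, higher in FD goats, beside 7.55% of all miRNA tested. The smallest p was that of miR-223-3p (log2 fold change 1.15, edgeR adjusted p = 0.195). Among the 4, miR-223-5p had a highest normalized count of 20.6 in Control libraries and 48.0 in FD libraries. It thus passed the count threshold for testing only through FD libraries, so its being tested depended on its FD level.

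The erythroid list (4 listed, 3 tested) had a median r of 0.25, and of -0.13 within diets. Within diets miR-144-5p had -0.71, miR-451-5p -0.13 and miR-144-3p 0.13. The sum of the erythroid list was 5075 ± 1034 and 7004 ± 1018 normalized counts, nearly all of it miR-451-5p. It was the highest in L02 (8756), one of the lowest libraries for the 5 miRNA. miR-451-5p, 1 of 3, had an unadjusted p under 0.05, higher in FD goats, beside 7.55% of all miRNA tested (log2 fold change 0.46, edgeR adjusted p = 0.195). The muscle list (9 listed, 5 tested, with miR-133b entered under 2 names with the same counts) had a median r of 0.72, and of 0.78 within diets. Its sum was 990 ± 255 and 1015 ± 350 normalized counts, with the highest value in L05 (1520) and the lowest in L09 (605). miR-133a-3p was its most abundant member, and miR-499-5p, with the smallest p of the list, had an r of -0.54 and a log2 fold change of -0.32 (edgeR adjusted p = 0.537). miR-122, the miRNA of liver, was at 0.245 and 0.292 normalized counts and was below the threshold for testing. In none of these lists did a miRNA pass an adjusted p of 0.1 in edgeR. DESeq2 put 7 of the 41 tested miRNA of these lists under it, with miR-133b counted under both names. Over all miRNA it was 27 of 490 (5.51%), a share taken without regard to direction. All 7 were higher in FD goats: miR-99a-5p, miR-99a-3p and miR-125b-3p of the other stromal list, miR-126-3p, miR-223-3p, miR-223-5p and miR-184, with DESeq2 adjusted p from 0.0664 to 0.0925. Of these 7, miR-223-5p and miR-184 passed the count threshold for testing only through FD libraries, so their being tested depended on their FD levels. The part of the listed cell types in the values of the 5 miRNA was not tested.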

How the data were processed

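Read counts per mature miRNA were those deposited for each of the 10 libraries. To make them, the authors called bases with CASAVA 1.8.2, removed adapters with Cutadapt, kept reads of 17 to 28 nt, aligned them to the CHIR_1.0 goat genome and counted them with the quantifier of miRDeep2 on goat precursors of miRBase 21 and on predicted precursors. The deposited score of a predicted precursor is the miRDeep2 score over all libraries together. The deposited normalized columns were not used, nor were the RT-qPCR and mRNA data. No molecular identifiers are described for the libraries, so the Wilson intervals of shares cover counting error only.

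Normalized counts are counts divided by the DESeq2 size factors over all 1804 miRNA. Diets were compared on all 490 miRNA whose highest normalized count was above 28, with edgeR's quasi-likelihood test (TMM, two-sided, no covariates) and Benjamini-Hochberg adjustment, with a threshold of 0.1. Fold changes are FD over Control. Ratios (pseudocount 1) were compared by exact permutation over 210 splits, with intervals by inversion of that test, and correlations by two-sided tests with 100000 permutations, or exactly with 8 or 9 libraries (17280 permutations within diets), adjusted over 4 ratios and 10 pairs, with a threshold of 0.05. The tests were checked on simulated data.

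The 5 miRNA and the lists were chosen with earlier results of these data known. The miRNA named besides the 5 were, by rule, the 5 most and 3 least like their mean profile, the 1 most like each, and the most abundant and smallest-p miRNA of each list. miR-100-5p, miR-144-5p, miR-144-3p, miR-146a, miR-150, miR-200b, miR-429 and miR-223-5p were named after their values were seen. So were the list members called by DESeq2 and the closest sequences. Alternatives were DESeq2, limma-voom, a robust fit, other scalings and filters, libraries drawn down to 4495512 counts, other pseudocounts and each library left out. Fits were made in R 4.3.3 (edgeR 4.0.16, limma 3.58.1, DESeq2 1.42.0), and the other steps in Python 3.11.15 (pandas 2.3.3, numpy 2.4.6, matplotlib 3.10.9, scipy 1.17.1).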

Additional observations from a re-analysis of the deposited data

Results flagged for a closer look

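Of the groups of values examined for a sample far from the others, 1 stood out. The summed level of the other stromal list, nearly all of it miR-143-3p by the diet means, was 947249 normalized counts in Control library L04. The other 3 Control libraries lay between 707417 and 723995, so that the gap to the nearest of them made up 0.931 of the range. Chance gives such a gap in about 1 in 20 groups, and 32 groups were examined. For the 5 miRNA of miR-199 and miR-214 no library of either diet stood apart in this way.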

How the results depend on the processing

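All 5 miRNA had a log2 fold change above 0 and an adjusted p above 0.1 in 12 other settings (11 for miR-214-5p, which has no value with a highest normalized count above 100) and with each library left out. With 1 library left out the log2 fold change ran from 0.30 to 0.57 for miR-199a-5p, from 0.31 to 0.55 for miR-199b-5p, from 0.11 (without L10) to 0.40 for miR-199c-3p, from 0.12 (without L10) to 0.38 for miR-214-5p and from 0.23 (without L05) to 0.48 for miR-214-3p. No scaling moved the median of all miRNA by more than 0.1 (log2), the largest shift being to -0.07 with upper quartile scaling. Over all miRNA, edgeR's count of 0 at an adjusted p under 0.1 became 27 with DESeq2, 5 without a filter and 1 with known miRNA alone, and 0 to 1 with 1 library left out (1 without L02). The count at an unadjusted p under 0.05 was 178 without a filter, where 1804 miRNA were tested, and ran from 46 (without L01) to 97 (without L02). The difference of medians reversed the sign of 3 ratios that were near 0, to -0.0028 for the arms of miR-214, 0.041 for miR-199a-5p over miR-199b-5p and 0.0084 for miR-214 over miR-199. With 1 library left out, the last 2 ran from -0.049 to 0.058 and from -0.071 to 0.053, and the miR-214 arms from 0.025 (without L03) to 0.12. The ratio of the miR-199 arms kept its sign and moved most, from -0.26 (without L10) to -0.010 (without L04), with a difference of medians of -0.27. The causes were not tested. The number of correlated pairs was 10 with library totals, with TMM-scaled totals, within diets and with each library left out. No paired analysis was possible because each goat received 1 diet and the replicate numbers, given in accession order, only name the samples. Depth limits miR-214-5p most, whose counting error alone was 16.7% in the library with the fewest reads of it and 8.67% in that with the most.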
